A study of Homo sapiens with 4 samples.

Results

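The genes described here encode the translation initiation factors of human cells, together with the kinases that phosphorylate eIF2 and the repressors that bind eIF4E. They were chosen as all protein-coding genes in the table of gene expression whose symbol begins with EIF and a number, which gave 56 genes of 33845. RNA-seq had been run on SW620, a cell line of colorectal cancer that came from a metastasis in a lymph node, at passages 12 to 15. There were 2 libraries from cells stably transfected with a plasmid for Flag-tagged GAP43, a protein best known from neuronal growth cones, and 2 libraries from cells stably transfected with control plasmids. The GAP43 plasmid carries neomycin resistance, and no source used here says whether the control plasmid does or whether the transfected cells were a single clone or a pool, so selection and clonal origin cannot be told apart from GAP43. Levels are given as FPKM, in which the authors scaled fragments for gene length and library size. Where values are joined by "versus", control replicates 1 and 2 come first and GAP43 replicates 1 and 2 second.

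Initiation begins when the trimer eIF2, loaded with GTP and the initiator tRNA, joins the small ribosomal subunit with eIF1, eIF1A, eIF3 and eIF5. The eIF4 factors recognise the capped end of the mRNA, unwind it and recruit this complex, which scans to the start codon. After start codon recognition eIF2 is released with GDP, and eIF2B recharges it. The 4 kinases EIF2AK1 to EIF2AK4 phosphorylate the alpha subunit of eIF2 under stress, which blocks eIF2B, lowers initiation on most mRNAs and raises translation of a few, ATF4 among them. The EIF4EBP repressors hold eIF4E away from eIF4G until the kinase mTORC1 phosphorylates them. The comparison asks how transcripts of this machinery differ once GAP43 is overexpressed.

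A few short coding stretches show where these proteins regulate each other. They were read from GENCODE release 29 transcripts, 5′ to 3′ on the coding strand, with the codons that matter in capitals. The first holds the codon of the serine of eIF2 alpha that all 4 kinases phosphorylate (codon 52 counting the start codon).
EIF2S1: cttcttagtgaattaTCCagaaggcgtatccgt
The next set holds the motif with which repressors and eIF4G compete for eIF4E. Capitals mark the codons of its tyrosine and of the first of its paired hydrophobic residues, which are alike in order in all 4 genes.
EIF4EBP2: attTATgacagaaagtttCTGttggat
EIF4EBP3: atcTACgaccgaaagttcCTGctggag
EIF4G1: cgtTACgaccgtgagttcCTGcttggt
EIF4G3: cagTATgacagggagtttCTGctggac
The lysine of eIF5A that is converted to hypusine, without which the factor is inactive, is in capitals in the set below. It shows how closely EIF5AL1 resembles EIF5A, which bears on the counting of reads.
EIF5A: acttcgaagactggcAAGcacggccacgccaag
EIF5A2: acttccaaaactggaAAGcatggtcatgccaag
EIF5AL1: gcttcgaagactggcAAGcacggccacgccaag

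The overexpressed gene was checked first. GAP43 was at 4.40 and 4.14 FPKM without GAP43 and at 16.3 and 9.89 FPKM with it, a log2 fold change of 1.38 (standard error 0.24, limma unadjusted p = 0.00117, adjusted p = 0.692). The libraries held between 17473071 and 21883137 recovered fragments. Of 8 colorectal epithelial markers 7 reached a mean of 1 FPKM, KRT8 and EPCAM among them, while of the fibroblast, leukocyte and endothelial markers LUM alone did. Both groups held a library that stood apart. GAP43 replicate 2, the shallowest library, gave the lowest of the 4 values for 5915 of the 13507 genes tested, while control replicate 2 was at least 1.5 times control replicate 1 for 806 genes, or 5.97%. Whether replicates came from separate cultures is not stated in the sources used here, and the p-values therefore reflect variation among these 4 libraries only, possibly technical variation. An exact permutation test of 2 against 2 libraries cannot go below p = 0.333.

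Transcripts of the initiation factors were lower as a group in the GAP43 libraries, with no single gene past an adjusted p. A mean of at least 1 FPKM, the level required for testing, was reached by 50 of the 56 genes. The 6 others were EIF1AY, EIF2S3L, EIF4E1B, EIF4E3, EIF4EBP3 and EIF5AL1. Of the 50 genes 46 had a log2 fold change below 0, against 55.5% of all genes tested, and the median was -0.31 against -0.04 over all genes tested and -0.08 over protein-coding genes. In 32 of the 50 both GAP43 libraries lay below both control libraries, where 24.1% of all genes tested did. EIF4G3 was the 1 gene above both controls, where 17.1% of all genes did. In bulk RNA, fewer cells of a type and less RNA per cell cannot be told apart.

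The single-gene test gave little. At an unadjusted p under 0.05 by limma 2 of the 50 genes were lower, EIF6 and EIF2B3, a share close to the 2.84% of all genes tested that were lower at this threshold. None of the 50 was higher, where 3.05% of all genes were, and 5.89% of all genes passed in either direction. The count moved when 1 library was left out, in fits that rest on a single library in 1 group. In these fits the log2 fold change of EIF6 ran from -0.76 to -0.51. That of EIF2B3 ran from -0.78 to -0.32. No initiation factor and no other gene passed an adjusted p under 0.05 by limma (0.0% of all genes tested). A voom run on the recovered fragments kept the library sizes behind the deposited FPKM, so it does not check that scaling. It gave 6 lower initiation factors at an unadjusted p, beside 3.66% of all genes, and also none at an adjusted p.

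The shift was uneven between libraries. In 25 of the 50 genes control replicate 2 was highest, followed by control replicate 1, GAP43 replicate 1 and GAP43 replicate 2. Over all 13507 genes tested 1797 had this order. The summed FPKM of whole libraries fell in the same order, from 307463 through 292286 and 288130 to 264760. GAP43 replicate 2 was the lowest of the 4 libraries for 41 genes, and control replicate 2 the highest for 34. Over all genes tested these counts were 5915 and 4407. Measured against the mean of the controls, the median gene stood at -0.17 in GAP43 replicate 1 and at -0.42 in GAP43 replicate 2, while the control libraries were 0.11 apart. GAP43 replicate 1 was below control replicate 1 for 38 of the 50 genes, where 6767 of all 13507 genes tested were. The median difference over the 50 was -0.06. Without GAP43 replicate 2 the median of the 50 was -0.17 and 41 genes were below 0. Without control replicate 2 it was -0.19 with 46 genes below 0. Of all genes tested 52.47% and 53.75% were below 0 in these runs. The plot of all members by library shows this order.

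**Figure D1:**
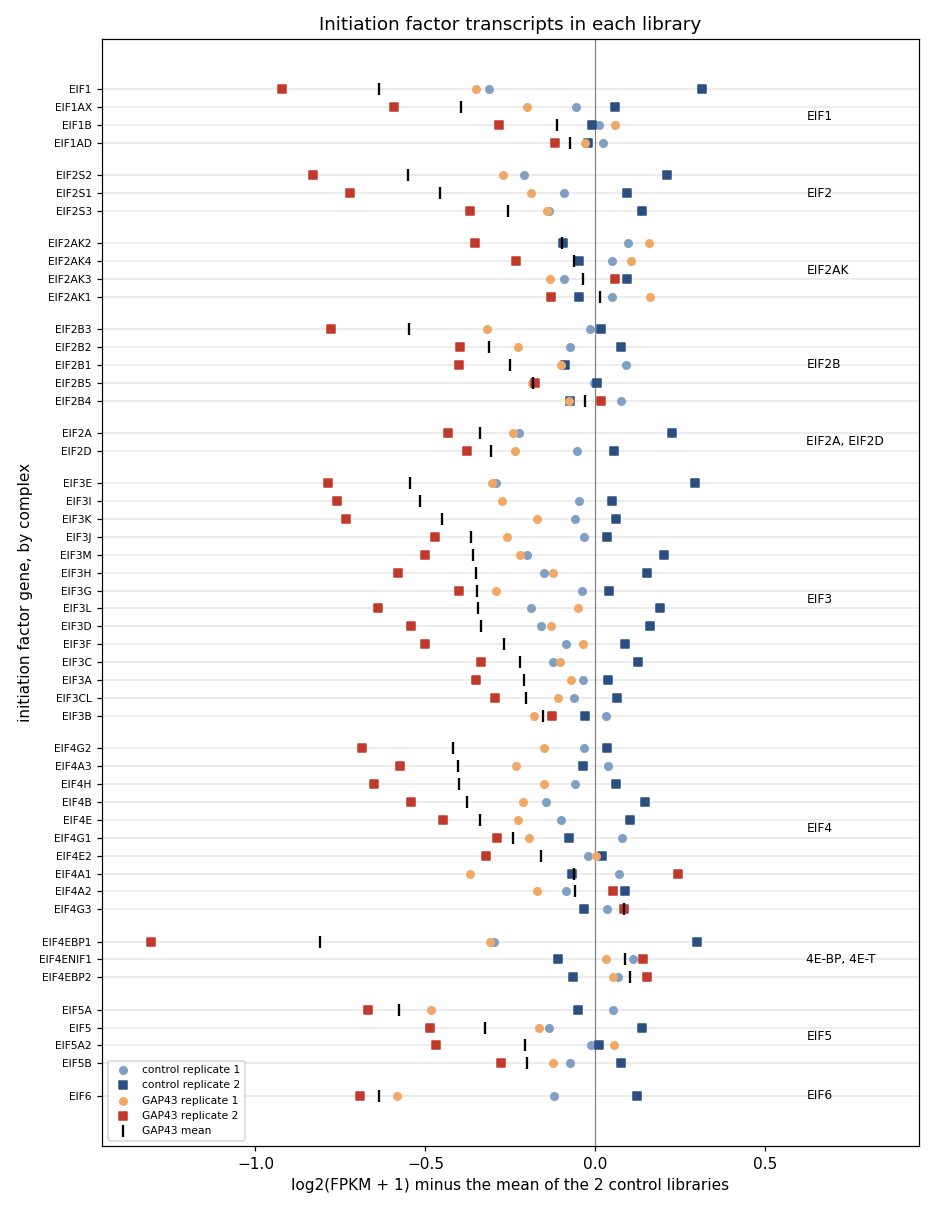
Each of the 50 tested genes as its log2(FPKM + 1) in each library minus the mean of the 2 control libraries, with the mean of the GAP43 libraries as a black bar. GAP43 replicate 2 lies farthest to the left for 41 genes and control replicate 2 farthest to the right for 34, and the kinases lie around 0, with a median that changes sign when FPKM is divided by its sum.

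Abundance was measured beside this shift, since abundant transcripts were lower in general. Among other protein-coding genes the median log2 fold change was -0.15 at a mean of 10 to 30 FPKM, -0.27 at 30 to 100 FPKM and -0.44 at 100 FPKM or more. Initiation factors, kinases and repressors included, had medians of -0.20, -0.35 and -0.52 in these ranges, over 11, 17 and 9 genes. At 1 to 10 FPKM the medians were -0.0042 for other genes and -0.16 for the 13 initiation factors. All 9 initiation factors at 100 FPKM or more lay below both controls, where 67.6% of the 312 other genes did. The part that abundance has in the shift of the initiation factors was not tested. When FPKM was divided by its library sum, the median of all genes tested went from -0.04 to 0.07, and the median initiation factor stood at -0.22. Relative to the median of all genes this was -0.28, compared with -0.27 in the deposited scaling. With FPKM divided by its sum 39 of the 50 genes were below 0 and 24 lay below both controls. Over all genes tested these shares were 41.5% and 16.0%.

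**Figure D2:**
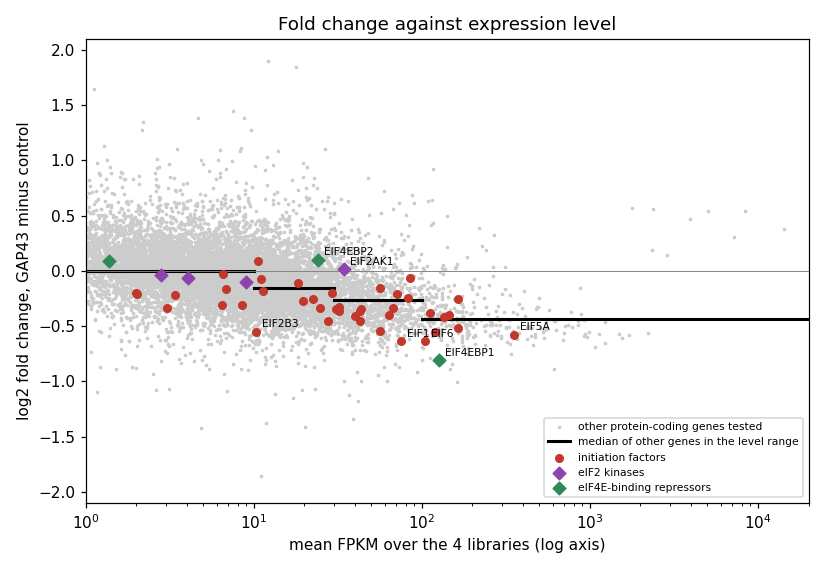
Log2 fold change (GAP43 minus control, log2(FPKM + 1)) against the mean FPKM over the 4 libraries on a log axis, for protein-coding genes tested. Black lines are the medians of other genes in each level range, -0.27 at 30 to 100 FPKM and -0.44 above. Initiation factors are in red, with kinases and repressors in other colours. Over all of these members together the medians in these ranges were -0.35 and -0.52.

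The scanning factors differed in size of effect and in spread. EIF1 keeps the small subunit from settling on wrong start codons. The gene (ENSG00000173812, chromosome 17 from 41688885 to 41692668, plus strand, GRCh38) was at 71.5 and 111 FPKM without GAP43 and at 69.6 and 46.5 FPKM with it. The groups did not overlap, but GAP43 replicate 1 nearly met control replicate 1, and the controls themselves differed 1.55-fold. The log2 fold change was -0.64 (standard error 0.31, limma unadjusted p = 0.0823, adjusted p = 0.692). Without GAP43 replicate 1 the unadjusted p was 0.0196, with a log2 fold change of -0.92, under the assumption that a single remaining library varies as the other group does. The log2 fold change was -0.35 without GAP43 replicate 2 (unadjusted p = 0.258) and -0.32 without control replicate 2 (unadjusted p = 0.482).

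EIF1B, the near copy of EIF1, had 19.1 and 18.8 versus 19.8 and 15.4 FPKM (controls against GAP43), and its groups overlapped. The coding sequences of the pair were 82.2% identical. EIF1AX, which encodes eIF1A, had 69.4 and 75.3 versus 62.7 and 47.6 FPKM, without overlap. EIF1AD, an eIF1A-like protein, had 11.6 and 11.2 versus 11.1 and 10.4 FPKM. The start codons of EIF1, EIF1B and EIF6 are shown because eIF1 is known to govern translation of its own mRNA through a poor start context. Capitals mark the start codon, and a purine 3 bases before it and a G after it make a strong context.
EIF1: tcgtatcgtATGtcc
EIF1B: tagtatcgcATGtcc
EIF6: ctaggcctcATGgcg
Over the 56 genes, 7 had no purine at that place, EIF1, EIF1B and EIF6 among them, and 25 had both features.

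The 3 subunits of eIF2 itself were all below both controls, where 24.1% of all genes tested were. Of other protein-coding genes at 10 to 30 FPKM, the range of EIF2S1, 36.3% were. At 100 FPKM or more, the range of EIF2S2 and EIF2S3, 67.6% were. EIF2S1, the alpha subunit that carries the phosphorylated serine shown above (chromosome 14 from 67359997 to 67386516), was at 29.6 and 33.8 FPKM without GAP43 and at 27.6 and 18.8 FPKM with it. EIF2S2, the beta subunit, had 122 and 163 versus 116 and 78.9 FPKM. EIF2S3, the gamma subunit that binds the initiator tRNA, had 161.4 and 195 versus 160.6 and 137 FPKM. GAP43 replicate 1 was at 0.932 to 0.995 times control replicate 1 in these genes, and GAP43 replicate 2 stood lower. The log2 fold changes were -0.46 (standard error 0.23), -0.55 (standard error 0.29) and -0.26 (standard error 0.24), with limma unadjusted p-values of 0.0974, 0.101 and 0.322. Without GAP43 replicate 2 they were -0.19, -0.27 and -0.14, and without control replicate 2 they were -0.36, -0.34 and -0.12. Leaving out GAP43 replicate 1 instead gave -0.72, -0.83 and -0.37, with unadjusted p-values of 0.00593, 0.0121 and 0.105. Within a library the ratio of EIF2S1 to EIF2S3 in FPKM was 0.184 and 0.173 in the controls against 0.172 and 0.137. EIF2S3L, a near copy of EIF2S3 with 98.2% of the coding bases in common, had at most 0.626 FPKM.

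The genes of the kinases that phosphorylate eIF2 had values around those of the controls. EIF2AK1, the kinase activated by heme deficiency, was at 35.5 and 33.1 FPKM without GAP43 and at 38.4 and 31.2 FPKM with it. EIF2AK2, the kinase activated by double-stranded RNA and known as PKR, had 9.89 and 8.54 versus 10.4 and 6.98 FPKM. All 4 kinases had GAP43 libraries that overlapped or straddled the controls, and none lay on 1 side of them. EIF2AK3, the kinase of endoplasmic reticulum stress known as PERK, had 2.62 and 3.11 versus 2.52 and 3.02 FPKM. EIF2AK4, the sensor of amino acid shortage known as GCN2, had 4.33 and 3.98 versus 4.54 and 3.38 FPKM. The 4 log2 fold changes lay between -0.10 and 0.01 with standard errors of 0.18 to 0.22, at unadjusted p of 0.671 to 0.943 by limma. Their median was -0.05, which turned to 0.05 with FPKM divided by its sum and to 0.13 without GAP43 replicate 2, so no direction is given for the kinases.

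The exchange factor eIF2B has 5 different subunits, and its genes had log2 fold changes from -0.55 to -0.03. EIF2B3, the gamma subunit beside the catalytic one (ENSG00000070785, chromosome 1 from 44850522 to 44986722, minus strand), was at 12.2 and 12.5 FPKM without GAP43 and at 9.69 and 6.77 FPKM with it. The GAP43 mean was 66.7% of the control mean, from 451 to 877 fragments per library. The log2 fold change was -0.55 (standard error 0.20, limma unadjusted p = 0.0347, adjusted p = 0.692). The unadjusted p was 0.109 without control replicate 1, 0.134 without control replicate 2 and 0.0865 without GAP43 replicate 2, where the log2 fold change was -0.32.

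Of the regulatory subunits, EIF2B1 had 25.9 and 22.8 versus 22.6 and 18.2 FPKM and EIF2B2 6.79 and 7.66 versus 6.02 and 5.23 FPKM. EIF2B4 had 7.02 and 6.23 versus 6.22 and 6.71 FPKM and was the 1 subunit whose groups overlapped. EIF2B5, the catalytic subunit, had 12.1 and 12.1 versus 10.5 and 10.6 FPKM, so its replicates were close and its difference of -0.18 (standard error 0.16) small. The model of EIF2B5 spans chromosome 3 from 184135038 to 184684758 and encloses EIF4G1 on the same strand. EIF2A and EIF2D, which can bring initiator tRNA without eIF2, had 23.4 and 32.4 versus 23.1 and 20.1 FPKM and 9.14 and 9.93 versus 7.93 and 7.11 FPKM. For EIF2D the log2 fold change was -0.31 (standard error 0.16, limma unadjusted p = 0.106).

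The largest complex, eIF3, bridges the small subunit to eIF4G. All 14 of its genes had a log2 fold change below 0, where 55.5% of all genes tested did. Below both controls lay 9, where 24.1% of all genes tested did. Most eIF3 genes stood at 30 to 100 FPKM, a range in which 54.4% of other protein-coding genes lay below both controls. The median was -0.35 in the deposited scaling, -0.24 with FPKM divided by its sum and -0.29 with median-ratio scaling, and all 14 stayed below 0 in both. EIF3I, a subunit shared with yeast (chromosome 1 from 32221928 to 32231604), was at 186 and 199 FPKM without GAP43 and at 159 and 113 FPKM with it. It had the smallest p of the complex, with a log2 fold change of -0.52 (standard error 0.26, limma unadjusted p = 0.0901). This was -0.27 without GAP43 replicate 2 (unadjusted p = 0.154) and -0.76 without GAP43 replicate 1 (unadjusted p = 0.00474). EIF3E had 53.8 and 81.1 versus 53.4 and 37.9 FPKM, and like EIF1 and EIF4EBP1 it differed over 1.5-fold between the controls. EIF3G, which takes part in scanning, had 47.3 and 50.1 versus 39.6 and 36.6 FPKM, with closer replicates. EIF3J, a loosely bound subunit, had 47.4 and 49.8 versus 40.4 and 34.7 FPKM.

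The scaffold genes of eIF3 were among those with the smallest differences. EIF3A had 74.2 and 78.3 versus 72.5 and 59.5 FPKM, and EIF3B had 61.1 and 58.5 versus 52.6 and 54.6 FPKM. EIF3C, EIF3D, EIF3F, EIF3H and EIF3L overlapped between the groups, with GAP43 replicate 1 above control replicate 1, while EIF3K and EIF3M did not overlap. Without GAP43 replicate 2 the median of the complex was -0.15, and without control replicate 2 it was -0.18. EIF3C had 3.33 and 4.15 versus 3.39 and 2.74 FPKM and EIF3CL 2.07 and 2.34 versus 1.97 and 1.61 FPKM, far below the other subunits. Their coding sequences were 99.9% identical, so reads of the pair cannot be assigned with certainty and their levels are uncertain. Summed over the complex, FPKM was 701 and 800.3 in the control libraries and 651 and 505 in the GAP43 libraries.

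**Figure D3:**
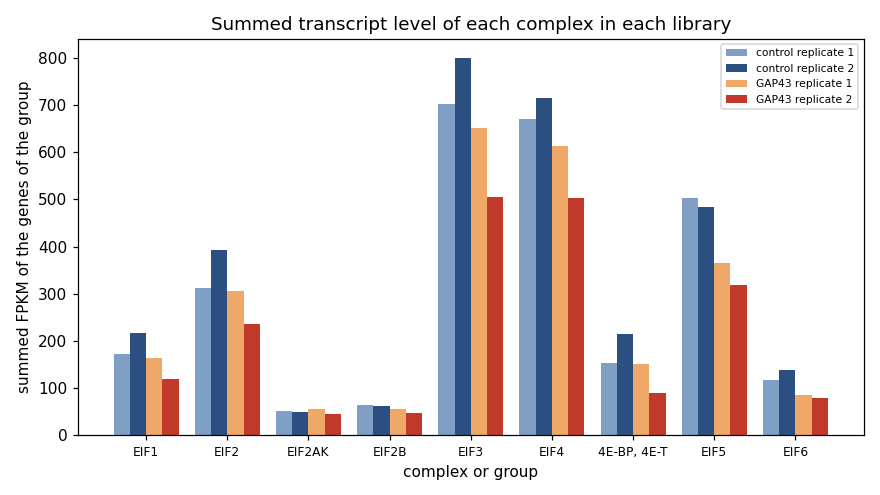
FPKM summed over the genes of each group, 1 bar per library, on an axis that starts at 0. The eIF3 sum runs from 800.3 in control replicate 2 to 505 in GAP43 replicate 2, and the kinase sums lie between 44.6 and 55.9 in all 4 libraries, with GAP43 replicate 1 highest.

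The cap-binding group was mixed. EIF4E, which binds the cap, was at 3.20 and 3.82 FPKM without GAP43 and at 2.84 and 2.29 FPKM with it. EIF4G1, the main scaffold (chromosome 3 from 184314495 to 184335358), had 94.4 and 84.7 versus 77.9 and 72.9 FPKM, and EIF4G2, a relative that does not bind eIF4E, had 151 and 158 versus 139 and 95.7 FPKM. EIF4G3, the other scaffold, had 10.5 and 9.95 versus 10.9 and 10.9 FPKM, the 1 gene of all 50 that was higher than both controls in both GAP43 libraries, by a log2 fold change of 0.09 (standard error 0.16). EIF4B and EIF4H, helpers of the helicase, had 114 and 140 versus 109 and 86.3 FPKM and 158 and 172 versus 148 and 105 FPKM. Neither group of values overlapped.

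The helicase genes differed from each other. EIF4A2 had 81.4 and 92.0 versus 76.6 and 89.7 FPKM, with overlapping groups and a log2 fold change of -0.06 (standard error 0.21). EIF4A3, a relative that belongs to the exon junction complex, had 46.6 and 44.2 versus 38.5 and 30.1 FPKM. It had the smallest p of the group, with a log2 fold change of -0.40 (standard error 0.20, limma unadjusted p = 0.0940). The value was -0.23 without GAP43 replicate 2 (unadjusted p = 0.178). EIF4A1, in most tissues an abundant transcript, was listed at 4.34 and 3.85 versus 2.93 and 5.02 FPKM. In GENCODE release 29 all 1218 of its coding bases also lie in exons of the readthrough gene SENP3-EIF4A1, which had between 0.0902 and 0.262 FPKM. How reads in shared exons were counted is not given in the sources used here, so no level is drawn for EIF4A1.

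The repressors of eIF4E differed from each other. EIF4EBP1, the main repressor (ENSG00000187840, chromosome 8 from 38030341 to 38060365, plus strand), was at 127 and 192 FPKM without GAP43 and at 126 and 62.6 FPKM with it. GAP43 replicate 1 was at the level of control replicate 1, and the low mean rests on GAP43 replicate 2 and the high control replicate 2. The log2 fold change of -0.81 (standard error 0.39) was the lowest of the 50 genes, at an unadjusted p of 0.0806 by limma. It was -0.31 without GAP43 replicate 2 (unadjusted p = 0.300), -0.51 without control replicate 2 (unadjusted p = 0.345) and -1.31 without GAP43 replicate 1 (unadjusted p = 0.00417). EIF4EBP2 had 24.2 and 22.0 versus 23.9 and 25.7 FPKM, a log2 fold change of 0.10 (standard error 0.18, limma unadjusted p = 0.584). EIF4ENIF1, which carries eIF4E into the nucleus, had 1.48 and 1.13 versus 1.35 and 1.53 FPKM, and EIF4EBP3 was under 1 FPKM in each library. The ratio of EIF4EBP1 to EIF4EBP2 within a library was 5.25 and 8.73 in the controls against 5.25 and 2.43, highest in control replicate 2 and lowest in GAP43 replicate 2. The ratio of EIF4EBP1 to EIF4E was 39.7 and 50.3 against 44.2 and 27.3. Its size depends on the gene model lengths used for FPKM, 1073 bases for EIF4EBP1 and 14067 for EIF4E.

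Late factors act once the start codon is found. EIF5A, which eases peptide bond formation and needs the hypusine shown above, was the most abundant of the 56 genes (chromosome 17 from 7306999 to 7312463). It was at 439 and 409 FPKM without GAP43 and at 302 and 266 FPKM with it, with a gap between the groups that was wider than the spread within either. The log2 fold change was -0.58 (standard error 0.25, limma unadjusted p = 0.0598, adjusted p = 0.692). It was -0.48 without GAP43 replicate 2, at an unadjusted p of 0.0391, and the unadjusted p was 0.410 without control replicate 1 and 0.329 without control replicate 2. EIF5AL1, with 98.9% of the coding bases of EIF5A, had 1.04 and 0.633 versus 0.543 and 0.547 FPKM and may share its reads. EIF5A2, at 71.6% identity, had 2.17 and 2.22 versus 2.32 and 1.31 FPKM.

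EIF5, which makes eIF2 hydrolyse its GTP, had 32.4 and 39.4 versus 31.8 and 25.2 FPKM, and EIF5B, which joins the large subunit, had 29.6 and 33.0 versus 28.6 and 25.6 FPKM. EIF6 keeps the large subunit from joining too early and takes part in its making. The gene (ENSG00000242372, chromosome 20 from 35278907 to 35284985, minus strand) was below the controls in both GAP43 libraries, at 117 and 139 FPKM versus 84.6 and 78.5 FPKM. These are 2508 to 4391 fragments per library, and the GAP43 mean was 63.8% of the control mean. The log2 fold change was -0.64 (standard error 0.22, limma unadjusted p = 0.0246, adjusted p = 0.692). Without GAP43 replicate 2 it stood at -0.58 (unadjusted p = 0.0203), while the unadjusted p was 0.132 without control replicate 1 and 0.289 without control replicate 2.

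Transcripts that report on eIF2 phosphorylation were read beside the factors. They comprised ATF4 and ATF5, whose translation rises when eIF2 is phosphorylated, and 8 genes of the stress response they drive. All 10 had a log2 fold change below 0, where 55.5% of all genes tested did, and 3 lay below both controls, where 24.1% did. However, 9 of the 10 were at least 1.5 times as high in control replicate 2 as in control replicate 1. This held for 5.97% of all genes tested and for 3 of the 50 initiation factors (EIF1, EIF3E and EIF4EBP1). ATF4 was at 179 and 296 FPKM without GAP43 and at 156 and 119 FPKM with it, a log2 fold change of -0.76 (standard error 0.32, limma unadjusted p = 0.0545). Without control replicate 2 it was -0.40 (unadjusted p = 0.464). TRIB3, an inhibitor induced by ATF4, had 25.4 and 91.2 versus 26.0 and 13.1 FPKM, and ASNS, asparagine synthetase, had 12.0 and 44.2 versus 12.6 and 8.72 FPKM. In both, GAP43 replicate 1 stood at control replicate 1 and control replicate 2 alone was high. ATF5 was the 1 gene of the 10 lower at an unadjusted p under 0.05, with 5.90 and 4.41 versus 3.13 and 3.16 FPKM, a log2 fold change of -0.56 (standard error 0.19, limma unadjusted p = 0.0223, adjusted p = 0.692). Its unadjusted p was 0.231 without control replicate 1 and 0.0527 with FPKM divided by its sum.

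**Figure D4:**
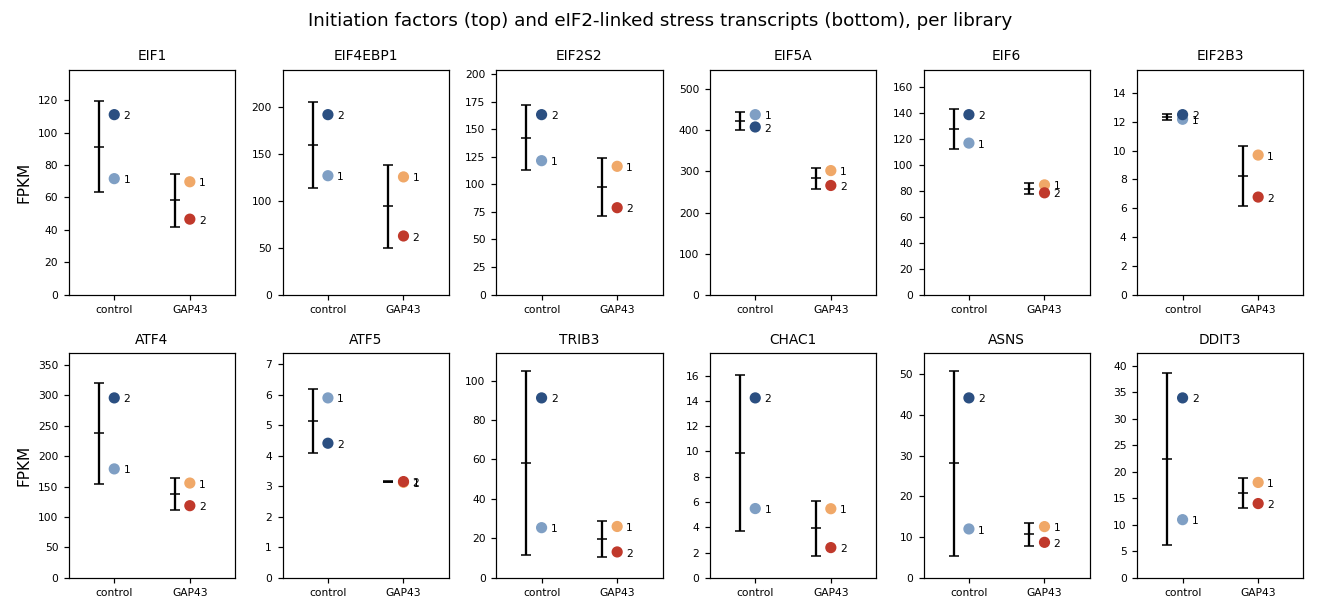
FPKM per library on linear axes that start at 0, with replicate numbers beside the points and the group mean ± SD (n = 2) beside them, for 6 initiation factors (top) and 6 transcripts linked to eIF2 phosphorylation (bottom). Control replicate 2 is the highest point for EIF1, EIF4EBP1, EIF2S2, EIF6, EIF2B3, ATF4, TRIB3, CHAC1, ASNS and DDIT3. For EIF5A and EIF6 both controls lie well above both GAP43 libraries.

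A list of 33 partners of the initiation factors was read in the same fit, of which 32 were tested. It held poly(A)-binding proteins, helicases, mTORC1 and MAPK inputs, eIF2 phosphatases and the hypusine enzymes. Below 0 were 27 of the 32, against 55.5% of all genes tested, with a median of -0.26. Below both controls lay 15, where 24.1% of all genes did. At an unadjusted p under 0.05 by limma 1 partner was lower and none higher, where 2.84% and 3.05% of all genes tested were. This was MLST8, a subunit of mTORC1, with 17.1 and 16.7 versus 12.96 and 10.36 FPKM. Its log2 fold change was -0.51 (standard error 0.18, limma unadjusted p = 0.0303, adjusted p = 0.692). The unadjusted p of MLST8 was 0.170 without control replicate 1, 0.143 without control replicate 2 and 0.0584 without GAP43 replicate 2. PPP1R15A, the stress-induced partner of the eIF2 phosphatase, had 19.9 and 58.1 versus 33.5 and 21.4 FPKM, and its constitutive relative PPP1R15B 12.5 and 15.1 versus 13.8 and 14.4 FPKM. Of the hypusine enzymes, DHPS had 16.5 and 16.4 versus 16.3 and 16.6 FPKM, whereas DOHH had 18.3 and 17.1 versus 15.3 and 10.4 FPKM. MTOR itself had 12.3 and 10.8 versus 11.3 and 10.5 FPKM.

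Promoters were read because most of these genes lay on the same side of the controls. RefSeq promoters (GRCh38.p14) were matched by symbol for 47 of the 56 genes, with the first listed start used, and the 250 bases before each start were searched on both strands for 4 motifs. The E-box CACGTG, which MYC and MAX bind, was found for 11 of the 41 tested genes with a promoter, or 26.8%, compared with 9.17% of 8570 promoters of all genes tested and 6.49% of all 27305 promoters. The ETS motif ACTTCCGG was found for 12.2% against 7.75% of genes tested, the CCAAT motif GATTGGCT for 4.88% against 4.84%, and the CRE TGACGTCA for 0 of 41 against 2.999%. None of the 4 motifs contains another, though the last letters of the E-box can be the first of the CRE. The median log2 fold change was -0.34 for the 11 genes with the E-box and -0.25 for the 30 without. EIF4A3, EIF4B, EIF4E, EIF4G1 and EIF4H of the cap-binding group held it, and their windows are shown on the gene's strand with the E-box in capitals. EIF4E and EIF4G1 each held a second copy.
EIF4A3 (chr17:80147229-80147264, minus strand): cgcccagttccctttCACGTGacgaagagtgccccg
EIF4B (chr12:53006419-53006454, plus strand): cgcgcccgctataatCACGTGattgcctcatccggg
EIF4E (chr4:98929185-98929220, minus strand): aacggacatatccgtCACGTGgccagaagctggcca
EIF4G1 (chr3:184314524-184314559, plus strand): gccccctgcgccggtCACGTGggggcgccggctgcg
EIF4H (chr7:74174142-74174177, plus strand): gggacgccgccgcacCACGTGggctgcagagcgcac
EIF2B3, EIF3K, EIF3F, EIF5A2, EIF1B and EIF2AK2 also held the E-box, while EIF6, EIF1 and EIF5A did not at that start. Of these carriers EIF3F, EIF5A2, EIF1B and EIF2AK2 did not lie below both controls, and EIF5A2 held a second copy too. A match describes letters in a window and shows no binding.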

How the data were processed

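The members and gene lists were chosen with earlier results of these data known. Per the labels, RNA-seq libraries were made from poly(A) RNA of SW620 cells with random hexamers and sequenced from both ends. The deposited FPKM values were made by the authors from fragments per gene, gene model length and a library factor. TopHat2 2.0.13, Cufflinks 1.1, Cuffdiff and hg19 are listed, without a role, in the submitters' processing notes. For the counting tool, the annotation and the use of strand the entry is: not given in the sources used here. All 56 members were found in GENCODE release 29 (GRCh38), 54 with the same start, so positions are those of GRCh38.

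For 100% of values above 0, FPKM times length came to a whole number of fragments within 0.01, giving 17473071 to 21883137 fragments per library. Libraries differed by more than counting noise (chi-square per degree of freedom 13.3 to 75.5, near 1 for copies). Genes at or over a mean of 1 FPKM were compared as log2(FPKM + 1), which understates the fold change of low genes, with limma 3.58.1 in R 4.3.3 (trended prior variance, 2-sided, Benjamini-Hochberg over 13507 genes). The test was tried on simulated data. Transcripts for printed sequences were those of the best APPRIS class and support level. Alternatives were another pseudocount, other filters, 2 scalings, protein-coding genes alone, a constant prior variance, a replicate block, voom and leaving out each library. The voom run kept the library factor of the deposited FPKM. Members named with full statistics were those at an unadjusted p under 0.05, the smallest p of each complex, EIF1, eIF2, the kinases and the repressors. Of the members, 41 overlap another gene of the table, by as few as 15 bases for EIF1B. How reads in the shared bases were counted is not given in the sources used here. For genes on the same strand, such as EIF4G1 and EIF2B5, strand would not tell them apart.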

Additional observations from a re-analysis of the deposited data

How the results depend on the processing

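The median log2 fold change of the initiation factors stayed below 0 in every alternative run, from -0.42 to -0.17 when 1 library was left out (without GAP43 replicate 1 and without GAP43 replicate 2). Of the other values for single genes 217 kept direction and side of the threshold, 24 passed it in addition, 12 no longer passed and 10 changed sign, and the cause was not tested. The number of initiation factors lower at an unadjusted p under 0.05 was 2, 6 by voom, and 0 to 22 with 1 library left out. Above both controls were 1, beside 17.1% of all genes tested, 2 with FPKM divided by its sum, and 1 to 6 with 1 library left out. The share of all genes above the controls was not counted in these other runs. Partners lower at that p were 1, 2 without a filter, at a filter of 5 FPKM and with median-ratio scaling, 3 among protein-coding genes alone and by voom, and 0 to 14 with 1 library left out. Kinases changed sign: with FPKM divided by its sum EIF2AK2 stood at 0.0070, EIF2AK3 at 0.061 and EIF2AK4 at 0.033, with median-ratio scaling EIF2AK3 at 0.0027, and with 1 library left out EIF2AK1 ran from -0.13 to 0.16, EIF2AK2 from -0.35 to 0.16, EIF2AK3 from -0.13 to 0.057 and EIF2AK4 from -0.23 to 0.11. Among all genes 412 were higher and 383 lower, which became 577 and 213 with FPKM divided by its sum, 455 and 346 with median-ratio scaling, and 223 and 418 among protein-coding genes. Same-numbered libraries did not deviate together (r = -0.164 across 13507 genes, which are not independent), so the numbers do not pair the samples: with the replicate block 2 initiation factors were lower at that p, EIF2B3 and EIF4EBP1, EIF6 having an unadjusted p of 0.0875, 0 partners were lower, and 152 genes passed an adjusted p where 0 did without it. With the crossed pairing, chosen after seeing the data, 7 initiation factors, 3 partners and 737 of all genes (5.46%) were lower at an unadjusted p under 0.05. The last compares with 383 without any pairing. Depth limits the genes under 1 FPKM, and intervals from 2 libraries a group are wide.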
